A study of Mus musculus with 2688 samples.

Results

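Microglia of the rostral brain (cerebral cortex and hippocampus) were compared with microglia of the caudal central nervous system (cerebellum and spinal cord) in 3-week-old CD1 mice labelled WT. The members were the cortex and hippocampus samples of that age, 6 region samples in all, against the 6 region samples of cerebellum and spinal cord. They hold 686 cells that passed the filters, 344 rostral and 342 caudal, of 2402 such cells and 51 region samples in the whole series, which also covers embryos, 16-week-old mice and other regions. Each region had 3 replicates, and a region sample is the summed counts of the 44 to 62 kept cells of 1 region and 1 replicate. Cells came from perfused, healthy animals, were enriched on a Percoll gradient, stained for CD11b, CD45, Ly6C, Ly6G and CD206, sorted as single microglia into 384-well plates and sequenced by SmartSeq2, a full-length single-cell RNA method without molecular identifiers. The 3 region samples of corpus callosum of the same age, and the 16 region samples of the same 4 regions at 16 weeks, 4 replicates each, are used beside the comparison. The study took several regions from the same mice, but the labels do not tie a replicate number to a mouse, so region samples of 1 age may share animals, and the p-values measure the spread between these samples.

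Microglia are the resident macrophages of the brain and spinal cord. They derive from yolk sac progenitors, depend on the receptor CSF1R and the transcription factor PU.1 for survival and identity, clear dying cells and synapses, and take on their adult program in the first weeks after birth. Where they engulf much material, as in developing white matter or beside lesions, they are known to lower sensing genes such as P2ry12 and Tmem119 and to raise Axl, Spp1, Lpl and cathepsins.

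Each region sample held 7146319 to 14811378 counts. Levels below are CPM, counts scaled to a common library total after edgeR's trimmed mean of M-values, and are not per length. A difference is a log2 fold change, rostral over caudal, with its standard error. A gene is called where its adjusted p from edgeR's quasi-likelihood test, over all genes tested, was under 0.05. Markers of microglia were high in all 12 region samples: P2ry12 ran from 8530 to 11130 CPM, Cx3cr1 from 6716 to 8610, Tmem119 from 4057 to 9489 and Sall1 from 305 to 783.5. The summed markers of monocytes reached 53.1 CPM, those of neutrophils 12.1 and those of T and NK cells 14.3, and Ifitm6, Cd3d, Nkg7 and Trac had 0 reads. Border macrophage markers summed to 281 to 502 CPM in rostral and 99.9 to 418 in caudal samples, and endothelial markers to 421 to 705 and 298 to 396. Most of the endothelial sum was Bsg, which had reads in 88.1% of all kept rostral and 89.5% of all kept caudal cells.

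Several measures of the libraries moved with side. All cortex and hippocampus cells of this age were on 1 plate, the cerebellum and corpus callosum cells on another, and the spinal cord cells on a different one again, so side and plate cannot be told apart. The median share of mitochondrially encoded counts per cell was 0.812% ± 0.106 in rostral and 1.78% ± 0.449 in caudal samples (SD, n = 6 each; exact two-sided permutation test, p = 0.002165, the smallest that 924 splits can give; 0.00866 adjusted over 4 measures). The ranges, 0.658% to 0.967% and 1.31% to 2.41%, did not overlap, and corpus callosum stood at 1.84%. Median counts per cell were 162700 ± 37030 rostral and 217900 ± 21250 caudal (exact permutation p = 0.008658; adjusted p = 0.01732). Across 6551 genes with a mean of at least 20 CPM, the log2 difference followed the GC content of the transcripts (Pearson r = 0.504, a description across genes that share 12 libraries). The median difference was -0.44 for transcripts under 40% GC and 0.57 for those over 60%. GC slopes were 0.22 to 0.263 log2 units per 10 points in the 6 cortex and hippocampus samples, -0.143 to -0.254 in the 6 caudal samples and -0.0154 to -0.117 in corpus callosum. At 16 weeks the same correlation was 0.0226 over 6543 genes. The results below are therefore also given with a GC offset, a fit added after the data were seen that takes out each sample's own GC trend.

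Of 11492 genes tested, 219 (1.91%) were called: 128 (1.11%) were higher in rostral and 91 (0.792%) higher in caudal microglia. The samples of the 2 sides did not overlap for 183 of the called genes, against 339 (2.95%) of all genes tested. The median difference was 0.87 among the genes called higher rostrally, -0.94 among those called higher caudally and -0.02 over all genes tested, and 76 called genes differed by more than 2-fold. Called genes also differed in composition, with a median GC content of 57.0% on the rostral and 42.4% on the caudal list against 49% over all genes tested. With the GC offset, 47 of 11168 genes (0.421%) were called, 28 higher rostrally (0.251%) and 19 higher caudally (0.17%), and 39 of these were also called without it. An offset for GC content and transcript length gave 53 calls (0.475%), 32 rostral (0.287%) and 21 caudal (0.188%), of which 42 were also called without an offset. DESeq2 without an offset called 628 genes (5.46%). None of the called genes with a GC value changed sign under the GC offset. Leaving out any 1 of the 12 samples kept 121 of the 219 calls in every such fit, and leaving out a whole region kept 33 in all 4 fits. With the GC offset, 13 of the 219 genes were called in all 12 left-out fits. Of genes described below, the offset call was kept in 5 of these fits for Fcrls, 4 for Srgn, 3 for Cd9 and Sparc, 2 for Tmem204 and 1 for Ctsl and Calcrl. Crybb1, Cfl1, Cst3, Cyth4, Actb, Fcer1g and Malat1 were called in every 1 of these 3 sets of left-out fits.

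**Figure D1:**
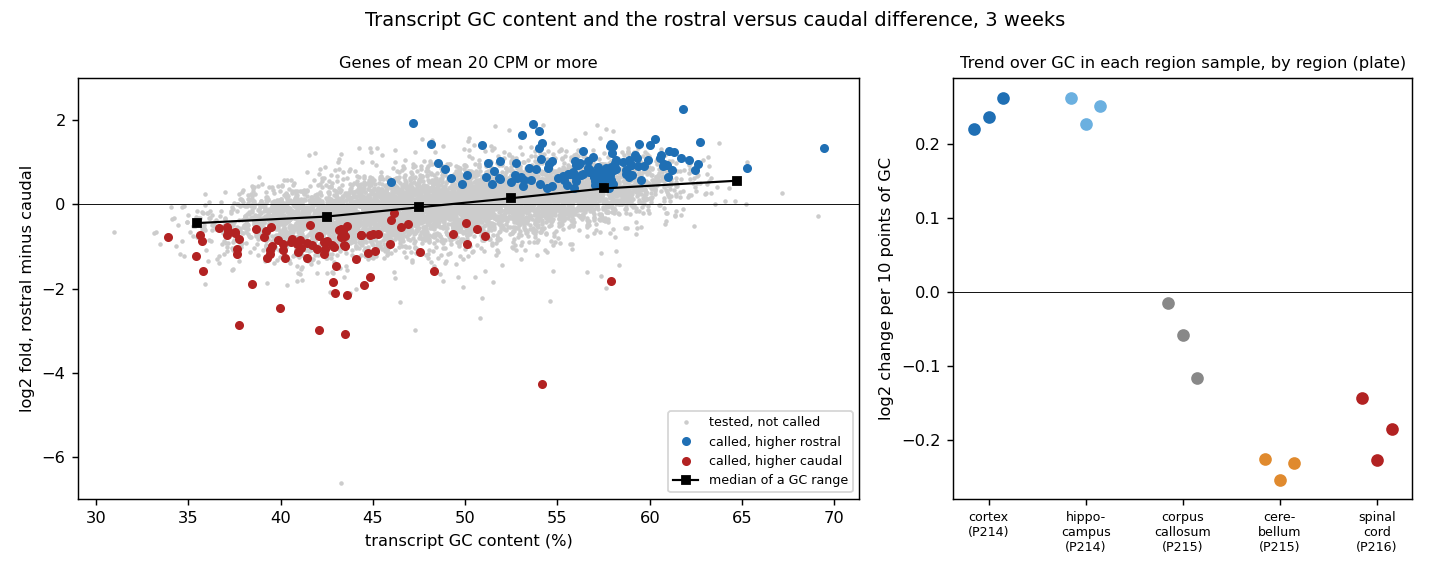
Left, the log2 difference between rostral and caudal microglia of each gene against the GC content of its transcript; right, the GC slope of each 3-week region sample in log2 units per 10 points of GC. The 6 cortex and hippocampus samples lie between 0.22 and 0.263 and every cerebellum and spinal cord sample lies below 0.

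The promoters of 2 genes higher on each side show the start regions from which these transcripts come. Sequences run from 250 bases before to 50 bases after a RefSeq start, 5′ to 3′ on the gene's strand, on GRCm38.p6. Gene coordinates are those of the deposited table, whose starts differ from RefSeq's, and Srgn has another RefSeq start that is not shown. Crybb1 lies at chr5:112255815-112269585 on the plus strand and its window at chr5:112255570-112255869. The genes on the minus strand are Cst3 (chr2:148871722-148875692, window chr2:148875463-148875762), Axl (chr7:25757273-25788705, window chr7:25788684-25788983) and Srgn (chr10:62493833-62527451, window chr10:62527396-62527695). Capitals mark matches on either strand to the PU.1 core GAGGAA, the AP-1 site TGANTCA, the E-box CACGTG or the GC box GGGCGG.
Crybb1: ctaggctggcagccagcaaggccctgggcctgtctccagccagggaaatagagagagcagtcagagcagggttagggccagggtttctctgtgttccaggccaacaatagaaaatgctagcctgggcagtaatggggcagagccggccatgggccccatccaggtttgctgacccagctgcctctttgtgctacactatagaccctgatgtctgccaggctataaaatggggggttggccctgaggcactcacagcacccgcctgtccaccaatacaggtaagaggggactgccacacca
Cst3: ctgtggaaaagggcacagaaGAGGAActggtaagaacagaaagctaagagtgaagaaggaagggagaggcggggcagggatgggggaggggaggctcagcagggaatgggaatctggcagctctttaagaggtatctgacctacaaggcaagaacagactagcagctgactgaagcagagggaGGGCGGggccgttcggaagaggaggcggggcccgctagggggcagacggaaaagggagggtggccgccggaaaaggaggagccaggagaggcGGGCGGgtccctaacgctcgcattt
Axl: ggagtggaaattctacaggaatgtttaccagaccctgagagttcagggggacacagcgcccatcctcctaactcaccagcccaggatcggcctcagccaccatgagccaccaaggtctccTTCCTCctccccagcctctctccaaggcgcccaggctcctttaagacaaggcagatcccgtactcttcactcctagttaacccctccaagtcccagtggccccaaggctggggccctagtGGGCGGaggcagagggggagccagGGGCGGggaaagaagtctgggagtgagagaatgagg
Srgn: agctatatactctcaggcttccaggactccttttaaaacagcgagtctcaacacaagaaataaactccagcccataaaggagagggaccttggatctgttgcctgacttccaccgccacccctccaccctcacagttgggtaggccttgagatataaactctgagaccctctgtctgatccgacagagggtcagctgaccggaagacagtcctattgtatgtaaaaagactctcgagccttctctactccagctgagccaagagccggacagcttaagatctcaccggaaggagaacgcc
Cst3 and Axl each had 1 PU.1 core and 2 GC boxes in this window, and Crybb1 and Srgn had none of the 4 motifs; no base lay in more than 1 match. Of the 128 genes called higher rostrally, 91 matched a RefSeq promoter and 31.9% of those held the PU.1 core, against 33.8% of 71 matched genes called higher caudally, 26.7% of 8374 matched tested genes and 28.3% of 27025 promoters in all. A GC box was in 64.8% of the rostral, 62.0% of the caudal, 65.7% of the tested and 35.9% of all promoters. The AP-1 site was in 2.2%, 5.63%, 4.39% and 7.93% in the same order, and the E-box in 5.49%, 7.04%, 10.6% and 7.24%. The GC content of the promoters, 62.3% rostral and 58.3% caudal, lay closer together than that of the transcripts.

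Among the genes that mark resting microglia, most called differences were toward the rostral side. Of 20 such genes, all tested, 8 were called higher in rostral and 2 higher in caudal microglia, and 10 were not called; their median difference was 0.14. Crybb1, a lens crystallin that postnatal microglia also express, differed most. It ran from 254.5 through a median of 313.7 to 412.6 CPM in rostral and from 44.89 through 70.47 to 81.96 CPM in caudal samples. The 6 rostral samples all lay above the 6 caudal ones, a 4.81-fold difference (log2 2.27 ± 0.18, adjusted p = 8.14e-06), and with the GC offset the log2 difference was 1.68 (adjusted p = 0.000182). After each cell was thinned to 36886 reads, Crybb1 was detected in 82.8% of rostral and 47.5% of caudal cells (means of 6 samples, ranges 77.8% to 90.5% and 36.7% to 55.9%; 83.1% and 53.5% unthinned), and 4 of 28 empty wells held a read of it. Thinning left out 60 rostral and 25 caudal cells of lower depth.

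Cst3, which encodes the secreted cysteine protease inhibitor cystatin C, was the most abundant of these transcripts. It ran from 53490 through 56360 to 62490 CPM rostrally and from 27870 through 30970 to 35330 CPM caudally. The sides did not overlap, the difference was 0.89 ± 0.06 on the log2 scale (adjusted p = 2.73e-06), and it was 0.53 with the GC offset (adjusted p = 0.000182). The transcript was detected in 100% of thinned cells on both sides, and 21 of 28 empty wells also held a read of it. Fcrls, an Fc receptor-like scavenger receptor, had levels of 3462, 5627 and 6436 CPM (lowest, median, highest) rostrally and 1743, 2702 and 3802 CPM caudally. Those ranges overlapped; the gene was called (log2 0.99, adjusted p = 0.011) and was also called with the offset (1.05, adjusted p = 0.0294).

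Tmem119, a membrane protein used as a microglia marker, ran from 7497 through 8106 to 9489 CPM rostrally and from 4057 through 5393 to 6177 CPM caudally. Every rostral sample was above every caudal one (log2 0.70 ± 0.10, adjusted p = 0.00134), but with the GC offset the difference was 0.25 and was not called (adjusted p = 0.419). Csf1r, the receptor for the survival factors CSF1 and IL-34, showed the same pattern, at 13690 to 15460 CPM caudally and 17040 to 20330 CPM rostrally (log2 0.39, adjusted p = 0.00154; with the offset 0.16, adjusted p = 0.319). Selplg, the P-selectin ligand (log2 0.50), and Sparc, a secreted matrix protein (0.54), were called higher rostrally without the offset and with it (0.50 and 0.41). Slc2a5, a fructose transporter, was called without the offset only (0.59, and 0.43 with it).

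Gpr34, a receptor for lysophosphatidylserine, was a resting marker higher caudally (log2 -0.55, adjusted p = 0.00545). With the GC offset its difference was -0.03 and was not called. P2ry12, the ADP receptor of process-bearing microglia, had medians of 9828 CPM rostrally and 9274 CPM caudally with overlapping ranges (log2 0.01, adjusted p = 0.982); with the offset it was called higher rostrally (0.47, adjusted p = 0.0152). Over the list, the offset left 6 genes called higher rostrally and 0 higher caudally. Leaving out cortex, hippocampus, cerebellum or spinal cord left 6, 5, 7 or 7 resting markers called higher rostrally and 0, 1, 0 or 0 higher caudally.

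**Figure D2:**
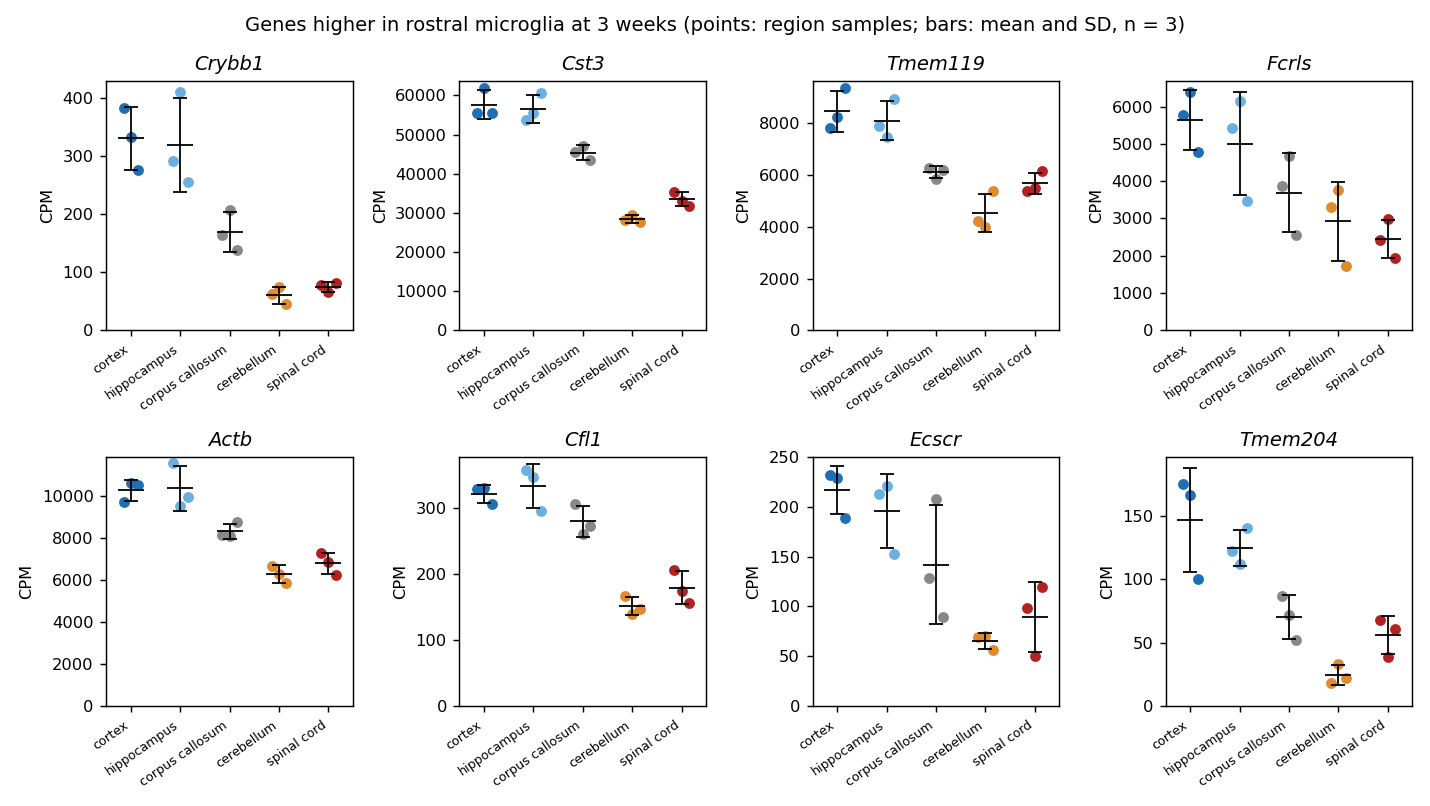
CPM of genes higher in rostral microglia, 1 point per 3-week region sample (3 per region), with the 5 regions side by side. For Crybb1 the 6 rostral samples lie between 254.5 and 412.6 CPM and the 6 caudal samples at or below 81.96 CPM.

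Actin genes were called on the rostral side alone: of 19 tested, 4 were higher rostrally and 0 caudally (10 higher rostrally and 0 caudally at an unadjusted p under 0.05, and 8 and 0 with DESeq2), with a median difference of 0.31. Cfl1, the actin-severing protein cofilin, had levels of 294.9, 333.4 and 355.7 CPM (lowest, median, highest) in rostral and 141.9, 162.4 and 206.7 CPM in caudal samples. No samples overlapped (log2 0.99 ± 0.12, adjusted p = 0.00054), and with the GC offset the difference was 0.92 (adjusted p = 0.00157). Actb, beta-actin, ran from 9584 through 10310 to 11540 CPM rostrally and from 5876 through 6546 to 7273 CPM caudally. It was 1.58-fold higher rostrally (adjusted p = 6.02e-05) and differed by 0.60 with the offset. Cotl1, which binds actin filaments, and Coro1a, a coronin of leukocytes, differed by 0.95 and 0.49; neither was called with the offset (0.50 and 0.09), which called Tmsb4x, an actin monomer-binding peptide, instead (0.35, adjusted p = 0.0316). Without hippocampus or without cerebellum 2 actin genes were called.

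The 3 chains of complement C1q, which tags synapses and debris for removal, were higher in rostral microglia. C1qa ran from 4107 through 4330 to 5325 CPM rostrally and from 2629 through 2997 to 3278 CPM caudally, 1.5-fold apart (adjusted p = 0.000645). C1qc differed 1.52-fold and C1qb 1.41-fold, also without overlap. With the GC offset the log2 differences of C1qa, C1qc and C1qb were 0.10, 0.22 and 0.13, none called, and the corpus callosum means, 3083, 2038 and 3424 CPM, were close to the caudal means of 2976, 2018 and 3314 CPM. The fourth complement gene called, C3ar1, the C3a receptor, was higher caudally (log2 -1.46 ± 0.34, adjusted p = 0.0416), at 51.46, 141.2 and 304.6 CPM rostrally and 316.2, 435 and 606.8 CPM caudally. It kept that call only without cortex 2, cortex 3 or hippocampus 2, and it was not called with the offset (-1.15, adjusted p = 0.231). Spi1, which encodes PU.1, was the 1 gene called among 23 transcription factors of microglia and macrophages, at 354.7 to 479 CPM rostrally and 217.5 to 321.6 CPM caudally (log2 0.66, adjusted p = 0.00807; 0.22 with the offset, adjusted p = 0.609; not called without any 1 of the 4 regions).

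The 12 genes with the largest rostral excess, among called genes with a mean of at least 20 CPM whose sides did not overlap, were led by Crybb1 and differed by 1.42 to 2.27 on the log2 scale. Cep120, a centriole protein, ran from 32.14 to 62.37 CPM rostrally and from 6.665 to 21.17 CPM caudally (log2 1.94 ± 0.35, adjusted p = 0.00881; with the GC offset 2.06, adjusted p = 0.0259). Blvrb, biliverdin reductase B of heme breakdown, was 33.05 to 78.57 CPM against 7.636 to 21.59 CPM (log2 1.92, adjusted p = 0.0101; with the offset 1.73, adjusted p = 0.0481). The rostral samples of both genes all lay above the caudal ones. With the offset, Cep120 was called in 5 and Blvrb in 0 of the 12 left-out fits.

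Tmem204, a membrane protein, was at 101.4, 130.8 and 177.2 CPM rostrally and at 18.26, 36.34 and 68.14 CPM caudally (log2 1.76 ± 0.32, adjusted p = 0.00807). It was detected in 28.9% of thinned rostral and 10.1% of thinned caudal cells. Ecscr, a small surface protein first described in endothelium, ran from 152.9 through 217.2 to 235.7 CPM rostrally and from 50.64 through 70.53 to 120.3 CPM caudally (log2 1.42 ± 0.22, adjusted p = 0.0025; with the offset 1.37, adjusted p = 0.00946). Its share of thinned cells was 55% rostrally and 26.8% caudally. Of 5 endothelial markers tested, 3 were above and 2 below 0 in log2 difference. Bsg, which made up most of their sum, was the 1 called, at 422.8 to 669.1 CPM rostrally and 271.5 to 345.7 CPM caudally. It was detected in 89.6% of thinned rostral and 90.6% of thinned caudal cells, so its level is not particular to endothelial RNA here. The part of endothelial RNA in the Ecscr and Tmem204 values was not tested.

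Also among the 12 were Arf3, a small GTPase of the Golgi (log2 1.66), Smg9, a factor of nonsense-mediated decay (1.55), Nckap5l (1.49), Plcg1, phospholipase C gamma 1 (1.47), Ddah2 (1.44) and Bckdha, a subunit of the enzyme that degrades branched-chain keto acids (1.44). None of these genes was called with the GC offset. Smg9, Nckap5l and Ddah2 were called in all 12 left-out fits. Arf3 was not called without cerebellum 3, cortex 2 or 3, hippocampus 1 or any 1 spinal cord sample, and Plcg1 was not called without cerebellum 1 or 2, cortex 2 or 3, hippocampus 2 or 3 or spinal cord 1. Bckdha was called in 1 of the 12 fits, the one without cerebellum 2.

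Genes of phagocytic and disease-associated microglia were called on the caudal side alone. Of 16 tested from a list of 20, 6 were higher caudally, 0 rostrally and 10 were not called (10 and 2 at an unadjusted p under 0.05, and 7 and 2 with DESeq2), with a median difference of -1.02. Axl, a receptor tyrosine kinase by which macrophages take up dying cells, differed most. Its levels were 0, 5.52 and 11.36 CPM (lowest, median, highest) in rostral and 56.63, 69.4 and 180.7 CPM in caudal samples. The lowest caudal sample lay above the highest rostral one (log2 -4.28 ± 0.86, adjusted p = 0.017; with the GC offset -4.50, adjusted p = 0.0415). In thinned cells Axl was detected in 1.76% of rostral cells (0% to 4.44%, 5 of 284 cells) and 17.2% of caudal cells (13.8% to 25%, 53 of 317 cells), and 3 of 28 empty wells held a read. The call was kept without any 1 sample but not without the hippocampus, the cerebellum or the spinal cord as a whole, nor without the filter on low counts. With the offset it was kept in 3 of the 12 left-out fits. In corpus callosum Axl was at 1.934, 96.83 and 99.5 CPM, which spans both sides.

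Cd9, a tetraspanin, ran from 402.5 through 523.1 to 678.7 CPM rostrally and from 820.2 through 987.8 to 1279 CPM caudally. No samples overlapped (log2 -0.95 ± 0.15, adjusted p = 0.00273; with the offset -0.77, adjusted p = 0.0415). Ctsl, the lysosomal protease cathepsin L, ran from 678.6 through 719.2 to 814.5 CPM rostrally and from 999.5 through 1197 to 1432 CPM caudally (log2 -0.73 ± 0.09, adjusted p = 0.00054; with the offset -0.48, adjusted p = 0.0455). Lyz2, lysozyme of macrophages, was called with overlapping ranges, 25.77 to 80.07 CPM rostrally and 79.6 to 282 CPM caudally (log2 -1.58, adjusted p = 0.0166). The chemokine Ccl6 was at 91.41 to 186.8 CPM and 202 to 455.3 CPM (log2 -1.10, adjusted p = 0.011). Lpl, lipoprotein lipase, was at 2.759 to 33.64 CPM and 22.46 to 343.9 CPM (log2 -3.08, adjusted p = 0.034), and kept that call in 5 of the 12 left-out fits, losing it without any 1 cerebellum sample, any 1 cortex sample or hippocampus 2. None of these last 3 was called with the GC offset.

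Spp1, the secreted phosphoprotein osteopontin, was not called (adjusted p = 0.057). It was at 0, 0.9015 and 29.22 CPM in rostral and 54.99, 89.76 and 3534 CPM in caudal samples, with the highest value in cerebellum 2. Apoe, the lipid carrier apolipoprotein E, had medians of 2239 CPM rostrally and 3870 CPM caudally, overlapped and was not called (log2 -0.54, adjusted p = 0.233). With the offset it was not called either (-1.02, adjusted p = 0.0633). The caudal regions were unlike in detection. Apoe was found in 91.7% to 98.3% of thinned cells in cerebellum samples and 64.8% to 84.8% in spinal cord samples, against 74.5% to 85.2% in rostral samples. Of the phagocytic list, 3 genes were called with the GC offset, Axl, Cd9 and Ctsl, all higher caudally. Without cortex, hippocampus, cerebellum or spinal cord, 3, 2, 2 or 4 were called higher caudally.

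**Figure D3:**
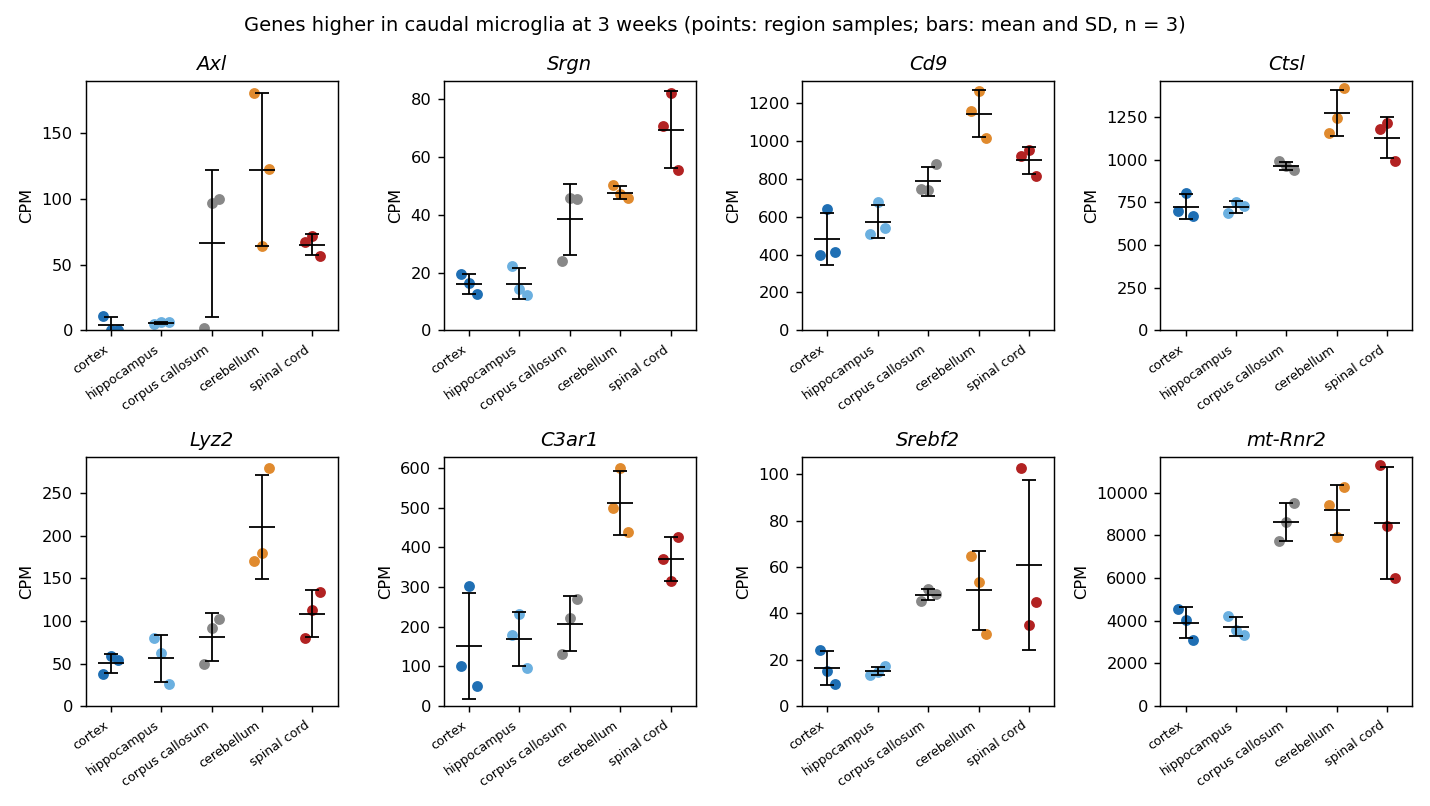
CPM of genes higher in caudal microglia, 1 point per 3-week region sample (3 per region), for each of 5 regions. For Axl the 6 rostral samples lie at or below 11.36 CPM and the 6 caudal samples at or above 56.63 CPM, while corpus callosum reaches from 1.934 to 99.5 CPM.

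Receptors and bridging proteins of clearance went in both directions: of 14 tested, 1 was higher rostrally and 2 caudally, 1 of which was Axl. Lrp1, a large scavenger receptor, was higher rostrally (log2 0.58, adjusted p = 0.00566), and Pros1, protein S, a bridging ligand of the Axl family, was higher caudally (-0.64, adjusted p = 0.00465). Neither was called with the GC offset (0.19 and -0.35). Lysosomal genes were also split, with 2 of 25 called higher rostrally and 5 caudally and a median of 0.08. Beside Ctsl, the caudal ones included the cathepsins Ctss (-0.37) and Ctsh (-0.44) and the membrane protein Lamp2 (-0.59); the rostral ones were Laptm5 (0.56) and Psap, the saposin precursor (0.45). Leaving out 1 sample ended the call of Ctss for cortex 1 or 3, hippocampus 1 or 2 or any spinal cord sample. Ctsh kept its call only without cerebellum 3, hippocampus 3 or spinal cord 3, and Psap only without spinal cord 1 or 3. With the offset the lysosomal calls were Ctsl and Ctsz, a cathepsin not called without it (-0.74, adjusted p = 0.0124).

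The 12 genes with the largest caudal excess under the same rule differed by -1.29 to -4.28, with Axl first. Of all 24 genes named by size, Crybb1 and mt-Rnr1 alone were called in all 4 fits that left out a region. Srgn, the granule proteoglycan serglycin, ran from 12.2 through 15.44 to 22.06 CPM rostrally and from 46.12 through 53.15 to 82.23 CPM caudally. The samples were apart (log2 -1.85 ± 0.28, adjusted p = 0.0025; with the GC offset -1.53, adjusted p = 0.0297), and Srgn was detected in 15.0% of thinned rostral and 26.2% of thinned caudal cells. Calcrl, the calcitonin receptor-like receptor, ran from 2.427 through 4.459 to 8.854 CPM rostrally and from 23.18 through 28.52 to 80.18 CPM caudally (log2 -2.87 ± 0.48, adjusted p = 0.00465; with the offset -2.37, adjusted p = 0.0467).

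Srebf2, the transcription factor that turns on cholesterol synthesis, was at 9.716, 15.18 and 24.53 CPM rostrally and 31.37, 49.76 and 102.8 CPM caudally (log2 -1.81 ± 0.35, adjusted p = 0.0139; with the offset -2.19, adjusted p = 0.0125; not called without any 1 region). Of 17 genes of cholesterol synthesis and efflux, the only other one called was Nr1h2, liver X receptor beta, which was higher rostrally (1.10, adjusted p = 0.0225; with the offset 0.57, adjusted p = 0.467; not called without cerebellum 2, cortex 1 or cortex 2, nor without any 1 region); the list's median was -0.59. Igsf6, an immunoglobulin-superfamily receptor of macrophages and dendritic cells, ran from 23.29 through 42.12 to 60.03 CPM rostrally and from 74.37 through 136.8 to 338.4 CPM caudally (log2 -1.92, adjusted p = 0.00797; with the offset -1.68, adjusted p = 0.0474, kept in 1 of the 12 left-out fits). It was detected in 9.95% of thinned rostral and 26.2% of thinned caudal cells.

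Plekha1, an adaptor that binds phosphoinositides, was called in all 12 left-out fits (log2 -1.73), but not with the GC offset (adjusted p = 0.0633). Taf1, the largest subunit of the initiation factor TFIID (-2.15), was not called without cortex 3 or spinal cord 1 or 2. Slamf6, a receptor of lymphocytes (-2.10), kept its call only without cortex 2, cortex 3 or hippocampus 2. Tmem161b (-1.88) kept it only without cerebellum 2, cortex 1 or hippocampus 2 or 3, and Tpd52 (-1.29) only without hippocampus 2. None of Taf1, Slamf6, Tmem161b and Tpd52 was called with the offset.

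**Figure D4:**
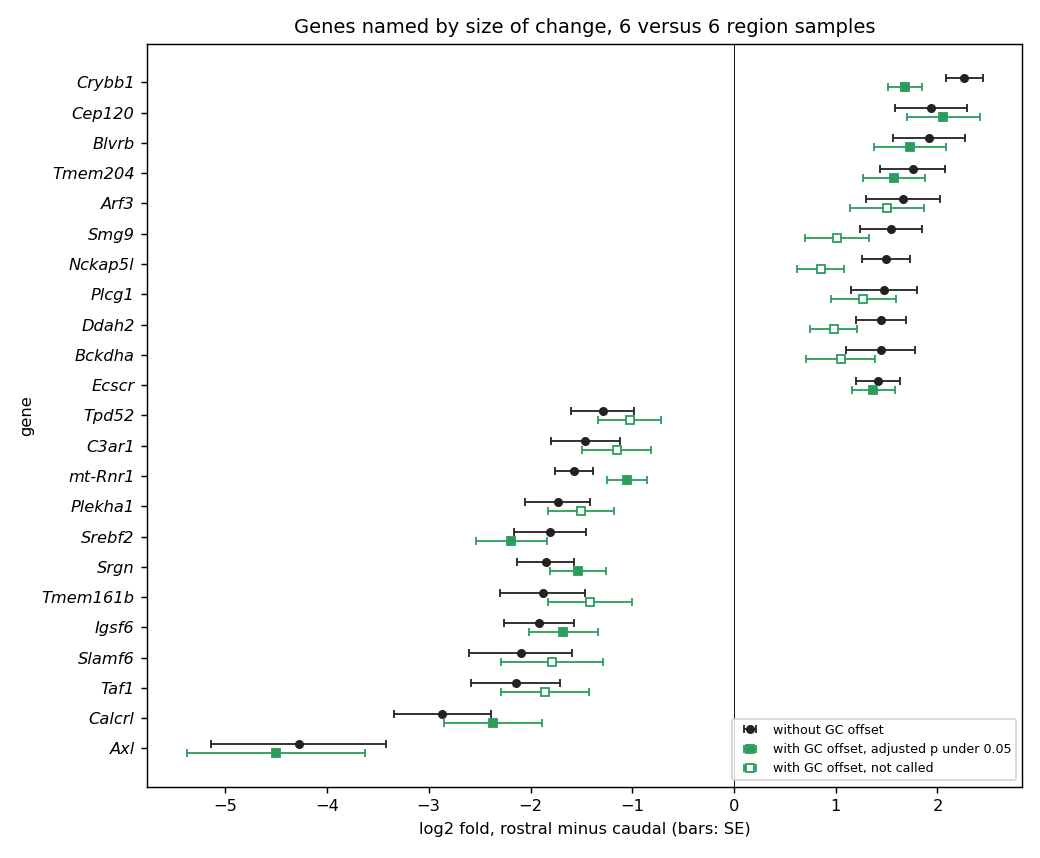
Log2 difference between rostral and caudal microglia at 3 weeks, with its standard error, of genes among the 12 with the largest difference in each direction, without and with the GC offset. Crybb1 stands at 2.27 without and 1.68 with the offset, and Axl at -4.28 and -4.50.

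Mitochondrially encoded transcripts were higher in caudal microglia, as the mitochondrial share of counts was: of 17 tested, 7 were called higher caudally and 0 rostrally (8 and 0 at an unadjusted p under 0.05, 7 and 0 with DESeq2), with a median of -0.73. mt-Rnr2, the large mitochondrial ribosomal RNA, ran from 3162 through 3845 to 4632 CPM rostrally and from 6049 through 8942 to 11280 CPM caudally. It was 2.33-fold higher caudally (adjusted p = 0.000242) and mt-Rnr1, the small one, 2.97-fold (adjusted p = 0.000486), both without overlap. mt-Co1, a subunit of cytochrome c oxidase, differed by -0.84. With the GC offset mt-Rnr2 (-0.67) and mt-Rnr1 (-1.05) were the only called members, and those calls were kept in 1 and 2 of the 12 left-out fits. The median GC content of the list was 36.6%.

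Xist, Ptprc and Malat1, the last chosen after its values were seen, were also called higher caudally. Xist, the RNA that coats the inactive X chromosome of females, ran from 607.8 through 644.6 to 911.3 CPM rostrally and from 1194 through 1247 to 1403 CPM caudally (log2 -0.90, adjusted p = 0.000402; with the offset -0.54, adjusted p = 0.0381, a call kept in 1 of the 12 left-out fits). Malat1, an abundant nuclear RNA, was also higher caudally (-0.87, adjusted p = 5.46e-06; with the offset -0.54, adjusted p = 0.00157). Ptprc, which encodes CD45, an antigen of the sort, was at 243.9, 317.9 and 466.7 CPM rostrally and 569.1, 720 and 817 CPM caudally (log2 -1.08, adjusted p = 0.00135), and was not called with the offset (-0.65, adjusted p = 0.092).

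Inflammatory and antigen presentation genes gave few calls. Ccl12, a monocyte chemoattractant, was the 1 called of 14 chemokines and cytokines (log2 -2.99, adjusted p = 0.0281), with overlapping sides, and lost its call without cerebellum 2, cortex 3, hippocampus 1 or 2 or spinal cord 1. With the GC offset it was not called (adjusted p = 0.113). Tlr2 was the 1 called of 19 pattern recognition genes (-0.71, adjusted p = 0.05 after rounding) and kept its call in 2 of the 12 left-out fits, those without cerebellum 2 or hippocampus 2; with the offset it was not called (adjusted p = 0.128). DESeq2 called 4 genes of each of these lists, all higher caudally. The median difference was -0.81 for the chemokines and cytokines, with 11 of 14 below 0. It was -0.39 for the pattern recognition genes, with 13 of 19 below 0. Dusp1, a stress-induced phosphatase, was the 1 called of 15 immediate early genes (log2 -6.52, adjusted p = 0.0167), and DESeq2 called 0 of them. It had no reads in 5 rostral samples, 0.787 CPM in the other one and 7.004 to 29.36 CPM caudally. In thinned cells it was detected in 2 of 284 rostral and 13 of 317 caudal cells. The Dusp1 call was kept in 1 of the 4 fits that left out a region. With the offset it was called (adjusted p = 0.0422), but in only 1 of the 12 left-out fits. None of 17 type I interferon response genes was called by edgeR (4 were higher caudally at an unadjusted p under 0.05, and 0 were called with DESeq2), and their median was -1.34. None of 14 genes of MHC class I or 7 of class II was called by edgeR (2 and 2 at an unadjusted p under 0.05, all higher caudally, and 1 and 0 with DESeq2).

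Housekeeping and proliferation lists also had no edgeR call. Of 80 cytosolic ribosomal protein genes, 5 were higher rostrally at an unadjusted p under 0.05 and 2 with DESeq2, and their median was 0.06. For 17 genes of glycolysis these counts were 5 and 1, with a median of 0.25. None of 13 purinergic receptor and potassium channel genes or 15 TGF-beta signalling genes was called (4 of each at an unadjusted p under 0.05, 0 with DESeq2). No S phase gene of 16 had an unadjusted p under 0.05, but 14 were below 0 and their median was -0.59. The S phase list summed to 184 to 379 CPM rostrally and 401 to 532 CPM caudally. Of 7 G2/M genes 3 were higher caudally at that level and 1, Mki67, with DESeq2. All 7 were below 0, with a median of -2.37, though the summed levels of that list overlapped. With the cerebellum left out, 3 G2/M genes were called higher caudally. Cycling cells, counted after thinning, were 2 of 284 rostral cells, both from cortex 2, and 5 of 317 caudal cells, all from spinal cord. Their mean shares of 0.794% and 1.47% did not differ beyond the spread (exact permutation p = 0.5455).

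Each rostral region was also set against each caudal one, fitted over the 4 regions. Cortex against cerebellum gave 62 of 14407 genes (0.43%), 39 higher in cortex (0.271%) and 23 in cerebellum (0.16%). Cortex against spinal cord gave 29 (0.201%), 13 higher in cortex (0.0902%) and 16 in spinal cord (0.111%). Hippocampus gave 43 against cerebellum (0.298%; 30 and 13, or 0.208% and 0.0902%) and 24 against spinal cord (0.167%; 11 and 13, or 0.0764% and 0.0902%). Crybb1, Cst3, Actb, Ckb, Cyth4 and Unc93b1, which traffics endosomal toll-like receptors, were called higher rostrally in all 4 pairs, and Ctsc, Malat1, mt-Rnr1 and mt-Rnr2 higher caudally. These pairs share samples with each other and with the whole comparison. Within the rostral side, cortex against hippocampus gave 0 calls (0%; 683 genes at an unadjusted p under 0.05, 73 with DESeq2), and within the caudal side, cerebellum against spinal cord gave 0 (0%; 855 and 94). Mean Crybb1 was 335 CPM in cortex, 319 in hippocampus, 75.2 in spinal cord and 60.9 in cerebellum; the neighbours in that order overlapped within a side. Cortex and hippocampus shared a plate, while cerebellum and spinal cord did not.

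Corpus callosum, the white matter tract beneath the cortex, was on the plate that held cerebellum, and gives the one contrast of regions on a common plate that includes a caudal region. Of 15337 genes, 1 (0.00652%) was called between corpus callosum and cerebellum: Cst3, higher in corpus callosum (log2 0.67 ± 0.06, adjusted p = 9.32e-05). Cst3 averaged 57511 CPM in rostral, 45356 CPM in corpus callosum and 31099 CPM in caudal samples. Crybb1 was at 138.1, 163.4 and 206.4 CPM in the 3 callosum samples, above every caudal and below every rostral value; its difference from cerebellum was 1.49 and was not called (adjusted p = 0.133). For cortex and hippocampus against corpus callosum, 9 genes (0.0587%) were called: Cst3 (0.33), C1qc (0.58) and C1qa (0.52) were higher in cortex and hippocampus (3, 0.0196%), and the other 6 (0.0391%), among them Rnf13, mt-Rnr1, mt-Rnr2, mt-Nd1 and mt-Cytb, were higher in corpus callosum. Over the 219 called genes, the callosum mean lay between the means of the 2 sides for 200, at or beyond the rostral mean for 4 and at or beyond the caudal mean for 15. It lay between them for all 24 genes named by size. The same count was not made over all genes tested. The called genes were selected for side means that lie apart, which leaves more room between them, so these counts are a description only. These comparisons share samples, so their values only stand side by side.

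The 16-week comparison had 8 rostral and 8 caudal region samples, with cortex, hippocampus and the caudal regions each on a different plate. Of 10875 genes, 16 (0.147%) were called at that age, 8 in each direction (0.0736% each). Of the genes called at 3 weeks and tested then, 146 (67.3%) had the same direction, against 53.7% of 10563 genes tested at both ages. Their median log2 difference toward the 3-week direction was 0.14 at 16 weeks and 0.88 at 3 weeks, the age at which they were selected. Csf1r, Ctsl, Fcrls, Slc39a12 and Sparc were called at both ages. Fcrls differed by 0.99 at 3 weeks and 2.09 at 16 weeks, Csf1r by 0.39 and 0.26, Sparc by 0.54 and 0.43, and Ctsl by -0.73 and -0.59. P2ry12, called at 3 weeks only with the GC offset (0.47), was called at 16 weeks without one (0.52, adjusted p = 0.00021).

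The change in the difference between ages was tested as an interaction, and 65 of 13967 genes (0.465%) were called, 28 with the higher (0.2%) and 37 with the lower difference at 3 weeks (0.265%), and 41 of them were among the 219. Cst3 averaged 36590 CPM rostrally and 33772 CPM caudally at 16 weeks, and its difference fell from 0.89 to 0.12 (interaction 0.76, adjusted p = 0.000335). C1qa was 3931 and 4044 CPM at 16 weeks (interaction 0.61, adjusted p = 0.000335), and C1qb and C1qc also changed with age. Srgn was 174.8 CPM rostrally and 174.9 CPM caudally at 16 weeks, more than on either side at 3 weeks (interaction -1.86, adjusted p = 0.00217). Crybb1 was 101.5 CPM rostrally and 48.2 CPM caudally at 16 weeks, a difference of 1.07 that was not called (adjusted p = 0.239), and its interaction was not called either (1.18, adjusted p = 0.165). Axl was 8.63 and 15.3 CPM at 16 weeks (log2 -0.83, adjusted p = 0.987; interaction adjusted p = 0.587). Plates as well as age differ in this test, and the GC trend was seen at 3 weeks. The part of plates and of the GC trend in the interaction was not tested.

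**Figure D5:**
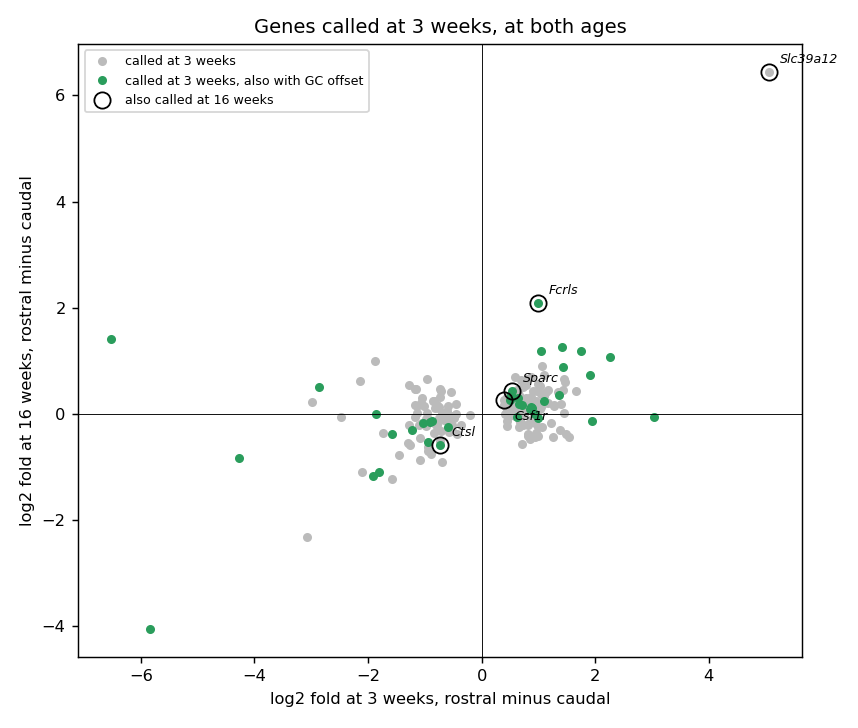
Log2 difference between rostral and caudal microglia at 3 weeks (x axis) and at 16 weeks (y axis), 1 point per gene called at 3 weeks and tested at both ages. 146 of the points, 67.3%, have the same sign at both ages; the median toward the 3-week direction is 0.88 at 3 weeks and 0.14 at 16 weeks.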

How the data were processed

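The deposited values are raw counts per gene and well, one table for 2688 wells (48587 gene rows and 92 spike-in rows, which stayed out of library sizes and tests; 716 gene rows share a symbol). Per the submitters' processing notes, the authors aligned reads with STAR 2.5.2b and counted with featureCounts 1.6.2 on GRCm38; strand use is not given in the sources used here. In the 224 wells of plate columns 1 and 2, the deposited counts were at least the sum of the same-plate wells whose names start the same (A1: A10 to A19; A2: A20 to A24), and that sum was subtracted; 0 of 2091638 corrected values fell below 0. Wells with at least 500 genes and at most 20% mitochondrial counts were kept, 686 of the 760 wells of these 12 region samples, and summed per region and replicate. No doublet caller was run on these sorted wells.

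Sums were tested with edgeR 4.0.16 (R 4.3.3; filterByExpr by side, trimmed mean scaling, robust quasi-likelihood fit, Benjamini-Hochberg adjustment), 6 against 6, with no batch term because plate follows side. Region pairs, corpus callosum, 16 weeks and the interaction were fitted the same way, and DESeq2 1.42.0 was an alternative. The GC offset is a natural spline of 4 degrees of freedom per sample, fitted over genes of at least 20 CPM and available for 97.2% of tested genes. Library measures were compared by exact permutation over 924 splits (numpy 2.4.6). The tests were checked on simulated data.

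Members and gene lists were chosen with earlier results of these data known. Genes are named by size as the 12 in each direction with the largest fold among called genes with non-overlapping sides, a mean of at least 20 CPM and a unique, non-predicted symbol, then as up to 3 called members of each list with the smallest p, with Apoe and Mrc1; the other genes named were chosen after their values were seen. Some genes that meet these rules are counted but not reported here.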

Additional observations from a re-analysis of the deposited data

Results flagged for a closer look

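Among 112 groups of 6 region samples checked for a sample far from the others, 10 held one; chance alone marks about 1 in 20. On the rostral side, cortex 3 had the highest C1qa, 5325 CPM against 4428 in the next sample, and the lowest mt-Rnr1, 125.5 CPM against 196.1. Hippocampus 2 had the highest Xist, 911.3 CPM against 679. Cortex 1 had the highest Mrc1, the gene of the sort marker CD206, 55.54 CPM against 1.493. Hippocampus 3 had the highest Taf1, 26.46 CPM against 12.62, and the only reads of Dusp1, 0.787 CPM. Cortex 2 held both rostral cycling cells, 4.762% of its 42 cells deep enough to be scored, against 0% in the other rostral samples. On the caudal side, cerebellum 1 had the highest Igsf6, 338.4 CPM against 157.8, cerebellum 3 the highest Calcrl, 80.18 CPM against 31.83, and spinal cord 3 the highest Dusp1, 29.36 CPM against 14.92. Igsf6, Calcrl and mt-Rnr1 were called without these samples too; Taf1 was called in 9 of the 12 left-out fits.

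The rostral against caudal difference changed between 3 and 16 weeks, by the interaction test, for 15 of the genes named. The log2 difference at 3 weeks minus that at 16 weeks was 1.97 for Smg9, 1.37 for Cotl1, 1.05 for Cfl1, 0.76 for Cst3, 0.63 for C1qc, 0.61 for C1qa, 0.48 for C1qb and 0.47 for Actb. It was -0.75 for Lamp2, -0.75 for Xist, -0.93 for mt-Rnr2, -1.09 for mt-Co1, -1.19 for mt-Rnr1, -1.86 for Srgn and -2.88 for Tmem161b. All of these were tested on samples that were not on the same plates at both ages.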

How the results depend on the processing

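The 219 calls became 370 on counts as deposited, without the subtraction in plate columns 1 and 2, 628 with DESeq2 and 392 with cells thinned to equal depth. They became 58 with the regions of a side summed per replicate number (3 against 3), and 56, 76, 79 or 87 without cortex, hippocampus, cerebellum or spinal cord, fits with fewer samples. Leaving out 1 sample gave 151 to 202. The GC offset gave 47 calls, 53 with transcript length added and 32 with the replicate block added; without cortex, hippocampus, cerebellum or spinal cord it gave 6, 6, 11 or 19, and without 1 sample 20 to 29 (20, 24 and 29 without each cerebellum sample, 27, 26 and 23 cortex, 21, 26 and 29 hippocampus, 25, 21 and 27 spinal cord). The cause of these changes was not tested. RLE factors (206), upper-quartile scaling (211), no filter on low counts (188), a contrast of region means (190), stricter cell filters and leaving out plate columns 1 and 2 (173) stayed within 1.5 times. Without those columns Tmem204, Bckdha, Slamf6, Igsf6, Tmem161b, Srebf2, C3ar1, Tpd52, Tlr2 and Spi1 were no longer called. Lyz2 and Lpl of the phagocytic list, Psap and Dusp1 were not called there either. Without the filter on low counts 7 of the named genes were no longer called, Axl among them. On 1 plate, corpus callosum against cerebellum gave 1 call (2 with the replicate block, 0 as deposited, 172 with DESeq2, 1 to 2 without 1 sample), and there Taf1 (0.11), Lamp2 (0.0676) and C1qc (-0.059) changed sign. Mrc1, never called, changed sign without cerebellum (2.35, and 2.61 with the offset).

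With DESeq2 the region pairs gave 507 (cortex and cerebellum), 376 (cortex and spinal cord), 353 (hippocampus and cerebellum) and 293 (hippocampus and spinal cord) calls; as deposited, hippocampus and cerebellum gave 78. Without 1 sample they gave 15 to 46, 9 to 24, 11 to 19 and 3 to 19. At 16 weeks there were 27 calls as deposited, 79 with DESeq2 and 6 to 20 without 1 sample. The interaction gave 161 as deposited, 191 with DESeq2 and 43 to 72 without 1 sample.

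With the replicate number as a block, 195 genes were called at 3 weeks and 27 at 16 weeks. All 12 samples correlated best with samples of their own number, but only weakly (0.000831 to 0.0513 against -0.0532 to 0.0313 for other numbers). Whether samples that share a number came from the same mouse was not tested. The fits without the block treat these samples as independent. With 12 samples of 44 to 62 cells, genes of a few CPM rest on reads from few cells.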

Other observations

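Some genes were called by edgeR with the GC offset but not without it. They were Tspan7 (log2 0.87), Reep5 (0.79), P2ry12 (0.47), Itm2b (0.40) and Tmsb4x (0.35) on the rostral side. On the caudal side they were Akna (-0.73), Ctsz (-0.74) and Gm26917 (-1.04). Of these, Tmsb4x and Ctsz at least were also called by DESeq2 without an offset. Tspan7 averaged 585 CPM in rostral and 395 CPM in caudal samples. Itm2b, an integral membrane protein, averaged 5960 and 5217 CPM. Ctsz, cathepsin Z, averaged 2029 and 2634 CPM, and differed by -0.30 at 16 weeks, where it was not called.

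At 16 weeks the caudal side was higher for Ctsl (-0.59), Fth1, the ferritin heavy chain (-0.74), Tmem176a (-0.74), Cd14, a coreceptor for bacterial lipopolysaccharide (-1.17), Csf2ra (-1.29), Tet3 (-1.36), Ifi30 (-1.39) and Rn18s-rs5 (-0.63). The 3-week differences of these genes were -0.73, -0.41, -0.13, -0.68, 0.18, -0.29, -0.15 and -0.29, and of these Ctsl alone was called at 3 weeks. On the rostral side Slc39a12, a zinc transporter, was called at both ages (5.06 at 3 weeks, 6.45 at 16 weeks), though the 3-week call was kept in 6 of the 12 left-out fits, in none that left out a region, and not with the GC offset (adjusted p = 0.0604 by edgeR). Also on the rostral side, Bank1 (1.61), Fchsd2 (0.90) and Cx3cr1, the fractalkine receptor (0.36), were called at 16 weeks alone. The interaction values of these genes are not given here.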
